A study of Homo sapiens with 2 samples.

Results

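THBS1, CAV1 and ACTA2 are 3 of the 373 genes read out by a targeted breast cancer panel in single SUM159 cells, a triple-negative breast cancer line of mesenchymal character. They were chosen by name as mesenchymal genes and followed through all 6 cell populations of the study. No measured value entered the rule that names them, but earlier results of these data were known when they were chosen. For each gene the level, the share of cells in which it was detected, its spread over cells and its co-expression with the other members are given.

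The study asked which genes differ once SUM159 cells have become resistant to chemotherapy, in 2 types of culture. The 6 populations were doxorubicin-resistant, paclitaxel-resistant and treatment-naive spheroids, and doxorubicin-resistant, paclitaxel-resistant and treatment-naive attached cells. Spheroids had formed in Matrigel over days, attached cells grew as a monolayer, and resistance had been selected in attached cells with rising doses over a long time, in the doxorubicin derivative by exposures that alternated with drug-free recovery. The 3 populations of a culture carried different sample tags and were loaded as a pool on 1 cartridge. Resistance to each drug is represented by 1 derivative of 1 line, and the doxorubicin-resistant derivative was newly made for the study. The sample labels call the drug populations of the spheroids treated, while the series' design calls them resistant. A matrix was given to a population by its name. Each population was measured once, so no comparison below has a replicate check, and no p-value can be given. All intervals are exact 95% intervals of counting error only.

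THBS1 encodes thrombospondin-1, a secreted matrix glycoprotein that restrains blood vessel growth and can release latent TGF-beta. CAV1 encodes caveolin-1, the coat protein of the membrane pits called caveolae, where receptors and integrins gather. ACTA2 encodes smooth muscle alpha-actin, the contractile actin of smooth muscle and myofibroblasts, whose transcription is driven by serum response factor at CArG boxes. All are used as markers when epithelial cells move towards a mesenchymal state. TEAD factors, which work with the cofactors YAP and TAZ, bind the letters GGAATG.

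The 250 bases before an annotated start of each gene are shown because the members did not move together, and because these windows differ in the letters named above. They come from RefSeq on GRCh38.p14. Capitals mark GGAATG and, in ACTA2 alone, CArG boxes, taken as CC and GG around 6 bases of which at most 1 was neither A nor T. THBS1 lies at chr15:39580829-39581078 on the plus strand, the first of 3 CAV1 windows at chr7:116524759-116525008 on the plus strand, and the second of 2 ACTA2 windows at chr10:88952774-88953023 on the minus strand.
THBS1: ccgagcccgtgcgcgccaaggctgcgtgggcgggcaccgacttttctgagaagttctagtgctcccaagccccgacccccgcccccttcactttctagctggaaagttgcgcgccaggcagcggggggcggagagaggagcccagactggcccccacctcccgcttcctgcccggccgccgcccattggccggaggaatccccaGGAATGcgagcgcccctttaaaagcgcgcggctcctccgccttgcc
CAV1: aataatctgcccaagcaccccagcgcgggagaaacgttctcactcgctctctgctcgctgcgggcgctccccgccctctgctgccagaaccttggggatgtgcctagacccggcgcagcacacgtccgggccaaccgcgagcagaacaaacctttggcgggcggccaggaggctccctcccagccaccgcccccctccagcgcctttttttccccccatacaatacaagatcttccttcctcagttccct
ACTA2: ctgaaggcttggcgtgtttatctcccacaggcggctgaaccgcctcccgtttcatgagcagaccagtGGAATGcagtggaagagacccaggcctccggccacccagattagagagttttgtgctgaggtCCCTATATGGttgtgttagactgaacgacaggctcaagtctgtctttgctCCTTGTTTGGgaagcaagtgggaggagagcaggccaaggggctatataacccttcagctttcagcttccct
The ACTA2 window held 2 CArG boxes, CCCTATATGG beginning 121 bases and CCTTGTTTGG beginning 71 bases before the start, and 1 GGAATG at 183 bases. The THBS1 window held no CArG box and 1 GGAATG at 46 bases. Neither was found in the CAV1 window or in the first ACTA2 window. Over 35116 windows of the same length, searched on both strands, 7.04% held a CArG box and 11.89% held GGAATG. The GC box GGGCGG, present in 42.64% of windows, occurred 4 times in THBS1, 3 times in CAV1 and 0 times in this ACTA2 window. TATAAA, present in 10.72% of windows, was in none of the 3. A match describes letters only, and no match leaves binding of the factor unknown.

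Targeted reads were assigned to genes without a stated use of strand, which bears on what a value can include. THBS1 (GRCh38.p14, chromosome 15, 39581079 to 39599466) shares 1128 bases with the noncoding gene THBS1-IT1 and 2027 bases with FSIP1 on the other strand. ACTA2 (chromosome 10, 88935074 to 88991337) shares 4901 bases with ACTA2-AS1 and 27288 bases with FAS on the other strand, and other actin genes resemble it closely. CAV1 (chromosome 7, 116525009 to 116561185) overlapped no other annotated gene. Which exons the panel's primers target is not stated by the sources used here.

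The matrices held 30122 cells, 11889 from spheroids and 18233 attached. The median number of unique molecular identifiers (UMIs, 1 for each captured transcript) per cell was 1538.5 to 2340 in the spheroid populations and 3653 to 3814 in the attached ones. Cells of at least 1000 UMIs made up 56.0% to 67.7% of spheroid cells and 99.98% to 100% of attached cells, so values per cell below use these 25396 cells. No barcode was shared within a cartridge, and 264 were shared over the 9 pairs of populations between cartridges. By the profile of all other genes, 35.0% of doxorubicin-resistant and 23.0% of treatment-naive spheroid cells resembled another population of their cartridge more than their own, against 16.2% of doxorubicin-resistant attached cells and 4.05% to 4.85% in the other 3. KRT8 and KRT18, keratins of carcinoma cells, were detected throughout, while the epithelial adhesion gene EPCAM stayed at 1.24 to 6.28 counts in 1000000 (CPM). The 8 leukocyte markers summed to 128.1 to 716 CPM, most of it CD14 with 87.7 to 700.3 CPM, and the 2 measured endothelial markers to 0.509 to 2.48 CPM. The 6 measured markers of smooth muscle or fibroblasts summed to 8761, 15672 and 32852 CPM in doxorubicin-resistant, paclitaxel-resistant and treatment-naive spheroids and to 3899, 8495 and 6641 CPM in attached doxorubicin-resistant, paclitaxel-resistant and treatment-naive cells, and none was at 0.

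THBS1 separated the attached populations widely and the spheroid populations little. Its level, as CPM of all UMIs of a population, was 1074 in doxorubicin-resistant, 1304.5 in paclitaxel-resistant and 745.5 in treatment-naive spheroids. In attached cultures it was 2555 in doxorubicin-resistant, 3716 in paclitaxel-resistant and 436.5 in treatment-naive cells. Both attached resistant populations thus stood above every spheroid population, and the treatment-naive attached cells stood below all others. Against the treatment-naive population of its own culture, THBS1 was 1.44-fold (1.40 to 1.48) higher in doxorubicin-resistant and 1.75-fold (1.70 to 1.80) higher in paclitaxel-resistant spheroids. The same ratios were 5.85 (5.73 to 5.98) and 8.51 (8.33 to 8.70) in attached doxorubicin-resistant and paclitaxel-resistant cells. The fold of resistance was therefore 4.06 times (3.92 to 4.21) smaller in spheroids for doxorubicin and 4.87 times (4.70 to 5.04) smaller for paclitaxel.

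As CPM, THBS1 differed between cultures in opposite directions in resistant and treatment-naive cells, and culture cannot be told apart from cartridge. It was 2.38-fold (2.33 to 2.43) lower in spheroid than in attached doxorubicin-resistant cells and 2.85-fold (2.79 to 2.91) lower in spheroid than in attached paclitaxel-resistant cells. In treatment-naive cells it was 1.71-fold (1.66 to 1.76) higher in spheroids than in attached cells. That increase is not seen in summed UMIs without division by the population's total, where the ratio was 0.901. The smooth muscle or fibroblast markers moved with THBS1 and CAV1 in treatment-naive cells. Of 6 markers, 5 were higher at 2-fold in treatment-naive spheroids than in treatment-naive attached cells, where 18.2% of 264 genes were higher. Their median log2 fold was 2.19 beside -0.33 over all genes measured. In resistant cells they did not move with THBS1. Between the same cultures 3 were higher with doxorubicin and 2 with paclitaxel resistance, and 0 lower, where 17.9% and 14.5% of all genes were higher and 15.7% and 24.3% lower. The part of these markers in the result was not tested.

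CAV1 was abundant in every population. Spheroids had 11989 CPM in doxorubicin-resistant, 16330 CPM in paclitaxel-resistant and 11451 CPM in treatment-naive cells. Attached cells had 17484.5 CPM in doxorubicin-resistant, 18446 CPM in paclitaxel-resistant and 6070 CPM in treatment-naive cells. The treatment-naive attached population was again the lowest of the 6, and the other 5 lay within a narrower band. Attached doxorubicin-resistant cells exceeded the treatment-naive ones 2.88-fold (2.86 to 2.90) and attached paclitaxel-resistant cells 3.04-fold (3.02 to 3.06). In spheroids the ratio was 1.43 (1.42 to 1.44) for paclitaxel resistance and 1.05 (1.04 to 1.06) for doxorubicin resistance, and the doxorubicin ratio lay between 0.926 and 0.976 in 3 of the other settings, so its direction was not settled. Between cultures, treatment-naive CAV1 was 1.89-fold (1.87 to 1.90) higher in spheroids than in attached cells (0.996 in unscaled UMIs), while doxorubicin-resistant CAV1 was 1.46-fold (1.45 to 1.47) lower in spheroids.

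ACTA2 ran the other way. Its level was 440.1 CPM in doxorubicin-resistant, 335.5 CPM in paclitaxel-resistant and 437.1 CPM in treatment-naive spheroids. It was 470.1 CPM in doxorubicin-resistant, 534.6 CPM in paclitaxel-resistant and 1110 CPM in treatment-naive attached cells. The contractile actin was thus highest in the very population in which thrombospondin-1 and caveolin-1 were lowest, and the other 5 populations all had under 535 CPM. Attached doxorubicin-resistant cells were 2.36-fold (2.31 to 2.41) lower than treatment-naive ones, and attached paclitaxel-resistant cells 2.08-fold (2.03 to 2.12) lower. Spheroids showed a 1.30-fold (1.24 to 1.36) lower level with paclitaxel resistance. For doxorubicin resistance the spheroid ratio was 1.01 with an interval of 0.967 to 1.05, which includes equality. Treatment-naive spheroids were 2.54-fold (2.46 to 2.62) lower than treatment-naive attached cells, a difference close to that between resistant and treatment-naive attached cells. In the attached populations the summed leukocyte markers moved with ACTA2, at 140.5 CPM and 198.6 CPM in doxorubicin-resistant and paclitaxel-resistant cells against 716 CPM in treatment-naive cells. Most of that sum was CD14, at 121.6, 166.9 and 700.3 CPM in the same order. The list did not move as a whole. Of 5 leukocyte markers measured, 1 was higher and 1 lower at 2-fold with doxorubicin resistance, where 24.3% of all genes were higher and 22.8% lower. With paclitaxel resistance 2 were higher and 2 lower, where 20.2% of all genes were higher and 25.2% lower. PTPRC was higher in both. The part of these markers in the result was not tested.

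**Figure D1:**
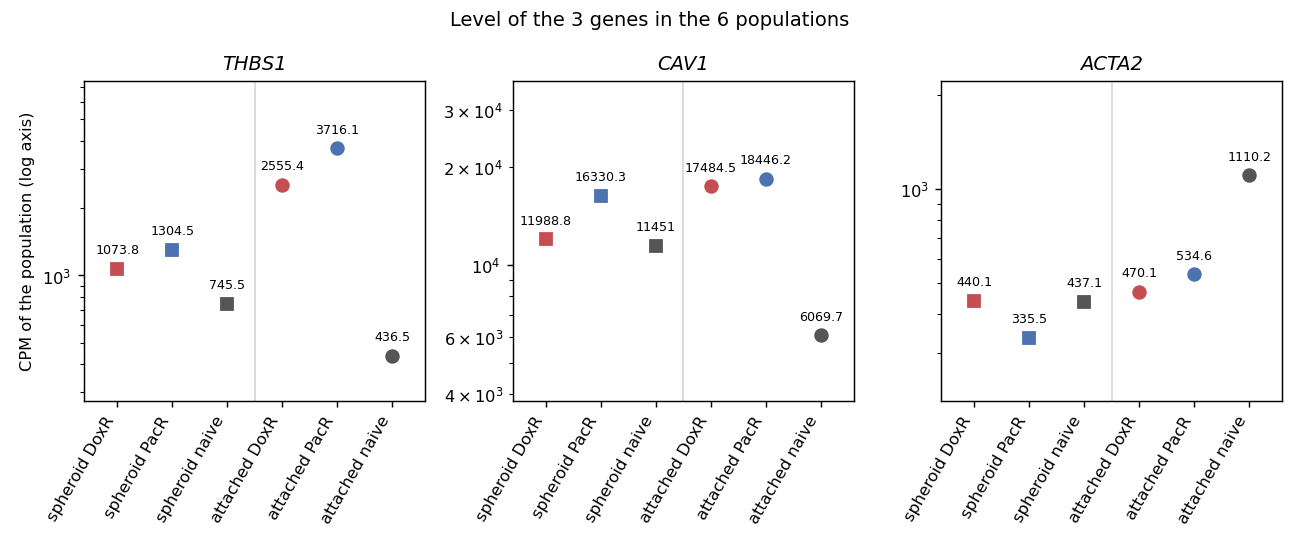
Level of THBS1, CAV1 and ACTA2 in CPM (log axis, 1 panel a gene) in doxorubicin-resistant (DoxR), paclitaxel-resistant (PacR) and treatment-naive (naive) spheroids, left, and attached cells, right. Each point is 1 unreplicated population, and counting intervals are smaller than most points. Treatment-naive attached cells have the lowest THBS1 and CAV1 and the highest ACTA2 of the 6 populations.

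A member was counted as higher or lower if its CPM differed at least 2-fold and the larger count reached 50 UMIs. In attached doxorubicin-resistant against treatment-naive cells, THBS1 and CAV1 were higher and ACTA2 lower, where 24.3% of 268 genes measured were higher and 22.8% lower. In attached paclitaxel-resistant against treatment-naive cells the same 2 were higher and ACTA2 lower, with 20.2% of 262 genes higher and 25.2% lower. None of the 3 reached 2-fold in doxorubicin-resistant against treatment-naive spheroids, where 16.5% of 260 genes were higher and 17.3% lower. None did so in paclitaxel-resistant against treatment-naive spheroids, where 9.92% of 252 genes were higher and 20.2% lower.

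Between the 2 kinds of resistance the 3 genes differed by less than 1.5-fold. No member reached 2-fold between doxorubicin-resistant and paclitaxel-resistant spheroids, where 12.7% of 251 genes were higher and 4.78% lower, nor between the attached populations, where 13.8% of 261 genes were higher and 9.96% lower. The widest of these 6 differences was THBS1 in attached cells, 1.45-fold (1.44 to 1.47) lower with doxorubicin than with paclitaxel resistance. CAV1 was 1.36-fold (1.35 to 1.37) lower in doxorubicin-resistant than in paclitaxel-resistant spheroids, and ACTA2 was 1.31-fold (1.25 to 1.37) higher.

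Between cultures, THBS1 was lower at 2-fold in doxorubicin-resistant spheroids against attached cells, where 17.9% of 268 genes were higher and 15.7% lower. THBS1 was also the only member past 2-fold in paclitaxel-resistant spheroids against attached cells, again lower, where 14.5% of 255 genes were higher and 24.3% lower. In treatment-naive cells ACTA2 was the only member past 2-fold, lower in spheroids, where 18.2% of 264 genes were higher and 24.2% lower. The 2 cultures were on different cartridges and differed in depth, and cartridge and culture cannot be told apart.

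**Figure D2:**
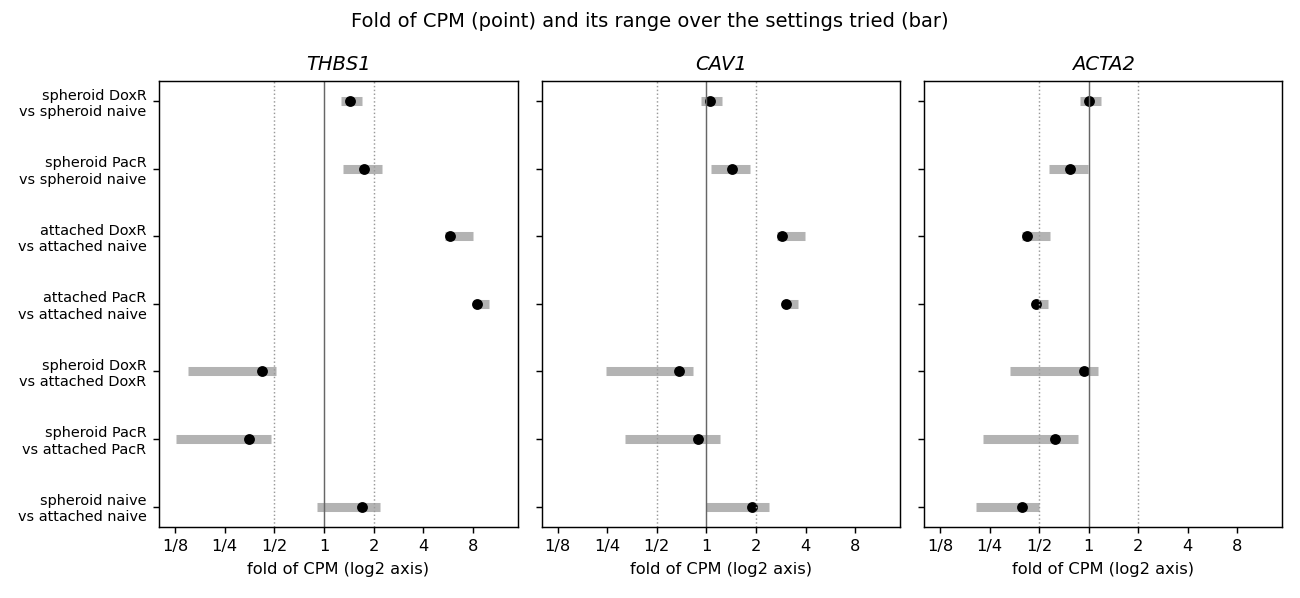
Fold of CPM of each gene (log2 axis, 1 panel a gene) in 7 comparisons, with points for the fold as reported and grey bars for the range over the settings tried. Dotted lines mark 2-fold in either direction. In attached resistant cells the bars of THBS1 and CAV1 stay above 2, whereas the points of all 3 genes for resistance in spheroids lie between 0.767 and 1.75, and summed UMIs without scaling stretch the bars between cultures.

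The scaling of a population decided some of these calls. Under summed UMIs without scaling, ACTA2 was at 0.582 of the treatment-naive level in attached doxorubicin-resistant and at 0.526 in attached paclitaxel-resistant cells, short of 2-fold in both. With the 5 most abundant genes (GAPDH, LGALS1, VIM, CXCL8 and FN1) left out of the totals, ACTA2 was at 0.568 in attached paclitaxel-resistant cells, and THBS1 in paclitaxel-resistant spheroids reached 2.25-fold.

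The share of cells with a UMI was compared after each cell had been reduced to 1000 UMIs, since a deeper cell shows more genes. At that depth THBS1 would be found in 39.0% of doxorubicin-resistant, 45.8% of paclitaxel-resistant and 24.3% of treatment-naive spheroid cells. In attached cultures it would be found in 69.9% of doxorubicin-resistant, 77.2% of paclitaxel-resistant and 24.5% of treatment-naive cells. Treatment-naive cells of both cultures thus had nearly the same share of THBS1-positive cells, although the level in spheroids was 1.71-fold higher, and no order is read from the shares. Before thinning, the shares in these cells were 60.8%, 65.9% and 41.6% in doxorubicin-resistant, paclitaxel-resistant and treatment-naive spheroids and 90.0%, 92.6% and 53.9% in doxorubicin-resistant, paclitaxel-resistant and treatment-naive attached cells. No cell type that should lack the genes was in the pools, so the part of free RNA in these shares was not measured.

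CAV1 was found in nearly every cell at 1000 UMIs. Its share was 97.3% in doxorubicin-resistant, 98.8% in paclitaxel-resistant and 92.0% in treatment-naive spheroids, and 99.9%, 99.96% and 93.1% in the attached doxorubicin-resistant, paclitaxel-resistant and treatment-naive cells. ACTA2 was found in 31.8% of doxorubicin-resistant, 27.5% of paclitaxel-resistant and 31.6% of treatment-naive spheroid cells. The attached doxorubicin-resistant, paclitaxel-resistant and treatment-naive cells had shares of 33.2%, 38.0% and 63.1%. Only the treatment-naive attached population had ACTA2 in more than 50% of its cells at that depth.

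By the share of its UMIs that the top cells held, THBS1 was concentrated in few cells, most of all in treatment-naive spheroids. Of the THBS1 UMIs in cells of at least 1000 UMIs, the top 10% of cells held 55.7% in doxorubicin-resistant, 51.0% in paclitaxel-resistant and 76.5% in treatment-naive spheroids. In attached cells the top 10% held 42.4% with doxorubicin resistance, 41.9% with paclitaxel resistance and 59.4% without resistance. The top cells thus held less of the THBS1 of resistant than of treatment-naive cells in both cultures, a share that also rises as the mean falls. The variance over the mean of UMIs thinned to 1000 per cell (the Fano factor, 1 for a Poisson distribution) gave another order, with 7.55 in doxorubicin-resistant, 4.88 in paclitaxel-resistant and 7.57 in treatment-naive spheroids and 5.35, 7.76 and 4.22 in attached doxorubicin-resistant, paclitaxel-resistant and treatment-naive cells. In attached cultures it was therefore higher in resistant cells, so no order of evenness is read from these measures. In treatment-naive spheroids the median cell had 0 CPM, the 95th percentile was 3935 CPM and the 99th was 10751 CPM, against a median of 171.6 CPM, a 95th percentile of 1633 CPM and a 99th of 4740 CPM in treatment-naive attached cells. In attached resistant cells the median itself was 1479 CPM with doxorubicin and 2210 CPM with paclitaxel resistance. After thinning, 75.9% of treatment-naive spheroid cells had no THBS1 UMI, where a Poisson distribution of the same mean would give 45.9%.

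CAV1 varied most widely in treatment-naive spheroids. Its Fano factor was 5.43 in doxorubicin-resistant, 4.75 in paclitaxel-resistant and 9.89 in treatment-naive spheroids, and 3.72, 2.92 and 4.73 in attached doxorubicin-resistant, paclitaxel-resistant and treatment-naive cells. The 25th and 75th percentiles of treatment-naive spheroid cells were 3378 and 17826 CPM, against 2613 to 8315 CPM in treatment-naive attached cells. At 20 or more UMIs of 1000, treatment-naive spheroids had 20.8% of cells and treatment-naive attached cells 2.66%, while 7.99% and 6.98% had no CAV1 UMI. The treatment-naive spheroids thus reached the high CAV1 of resistant cells in a part of their cells only.

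ACTA2 counts lay close to a Poisson distribution, but its thinned means were only 0.361 to 1.11 UMIs per cell. A given relative spread yields a Fano factor nearer 1 at a lower mean, so no evenness is read from it. A low mean alone did not hold it near 1. THBS1 had 4.22 at a thinned mean of 0.445 in treatment-naive attached cells and 7.57 at 0.7785 in treatment-naive spheroids. The Fano factor of ACTA2 was 1.29, 1.13 and 1.21 in doxorubicin-resistant, paclitaxel-resistant and treatment-naive spheroids, and 1.41, 1.39 and 1.32 in attached doxorubicin-resistant, paclitaxel-resistant and treatment-naive cells. In treatment-naive attached cells 36.9% had no ACTA2 UMI after thinning, where Poisson gives 32.8%. At most 1.58% of cells of any population had 5 or more thinned UMIs.

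**Figure D3:**
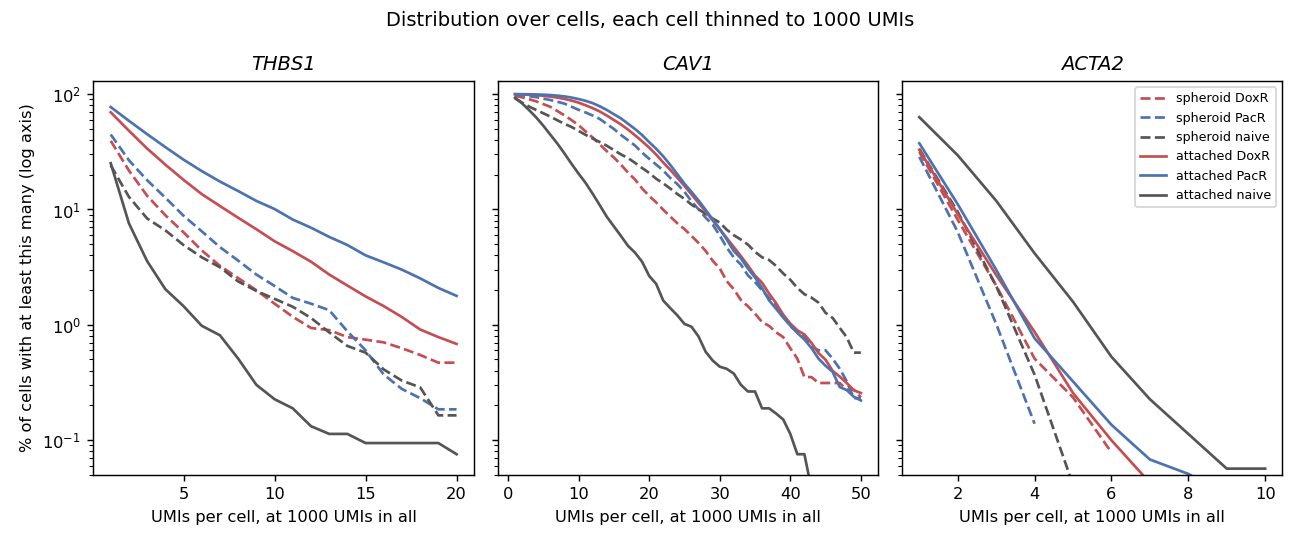
Share of cells (%, log axis) with at least a given number of UMIs of each gene, after thinning every cell to 1000 UMIs in 1 random draw, for the 6 populations (dashed lines spheroids, solid lines attached cells). The treatment-naive spheroid line of CAV1 starts with the lowest lines and crosses to the top at high UMI numbers, and the treatment-naive attached line of ACTA2 lies above all others up to 10 UMIs.

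Cells were also compared pair by pair, without relying on means. A doxorubicin-resistant attached cell had the higher THBS1 share in 83.7% of pairs with a treatment-naive attached cell, counting ties as 50%, and a paclitaxel-resistant one in 87.6%. For CAV1 these values were 91.2% and 94.0%, and for ACTA2 22.2% and 25.4%. In spheroids the doxorubicin-resistant cell was higher in 61.0% of pairs for THBS1, 53.1% for CAV1 and 49.9% for ACTA2, and the paclitaxel-resistant cell in 64.9%, 64.9% and 45.3%. A treatment-naive spheroid cell exceeded a treatment-naive attached cell in THBS1 in 46.5% of pairs and, after thinning to equal depth, in 50.3%, so that neither was clearly higher by pairs although the mean level was higher in spheroids. Its CAV1 was higher in 65.2% of pairs and its ACTA2 in 21.0%.

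Cells that resembled another population carried part of these values. In treatment-naive spheroids they held 33.5% of THBS1 UMIs and 33.3% of CAV1 UMIs, with 1082 CPM of THBS1 against 648 CPM in the cells that resembled their own population best. Without such cells THBS1 was 1.52-fold higher in doxorubicin-resistant and 1.99-fold higher in paclitaxel-resistant than in treatment-naive spheroids. CAV1 was then 1.20-fold and 1.68-fold higher in these 2 comparisons. No call at 2-fold changed.

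Within populations, THBS1 and CAV1 went together over cells, while pairs with ACTA2 stayed near 0 when cells of all depths were pooled. The correlations below are Spearman's rank correlation of each gene's share of a cell's UMIs and describe cells of 1 library that share depth and a fixed total. For THBS1 and CAV1, the correlation was 0.320 over 2558 doxorubicin-resistant, 0.176 over 2164 paclitaxel-resistant and 0.398 over 2442 treatment-naive spheroid cells. In attached cells it was 0.175 over 7032 doxorubicin-resistant, 0.0902 over 5895 paclitaxel-resistant and 0.181 over 5305 treatment-naive cells. Treatment-naive spheroids thus had the closest coupling, and attached paclitaxel-resistant cells, where both genes were at their highest, the weakest. After thinning to 1000 UMIs, the correlation was 0.335 and 0.0579 in these 2 populations, and without the cells that resembled another population it was 0.388 and 0.0793.

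For ACTA2 the correlations over cells of all depths were near 0 almost everywhere. The coefficient with THBS1 lay between -0.0114 and 0.113 and that with CAV1 between -0.00326 and 0.0485. After thinning, the highest of these 12 values was 0.0308. In treatment-naive spheroids the top decile of cells by THBS1 shared 24.2% of its cells with the top decile by CAV1 and 5.74% with the top decile by ACTA2, where 10% is the share of unrelated genes. The median CAV1 of the top THBS1 decile there was 19060 CPM, against 8396 CPM in the remaining cells. In attached paclitaxel-resistant cells the overlap of the THBS1 and CAV1 deciles was 11.7%, and the medians were 18066 CPM and 17530.5 CPM. It was 23.4% in attached treatment-naive cells, close to that of treatment-naive spheroids, 13.9% in attached doxorubicin-resistant cells, 13.3% in doxorubicin-resistant and 9.72% in paclitaxel-resistant spheroids.

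**Figure D4:**
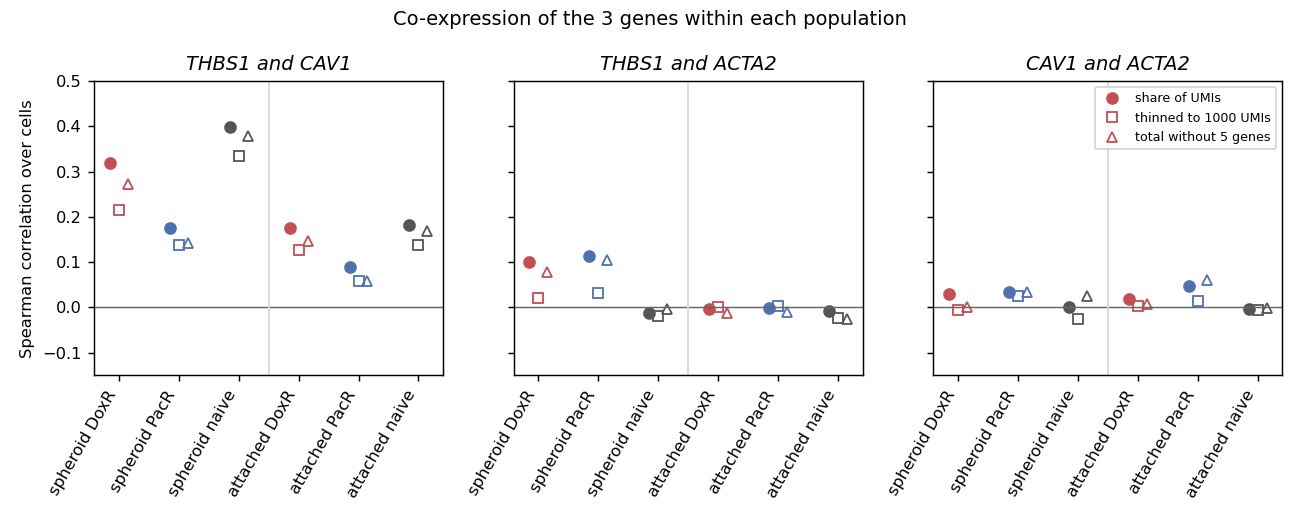
Spearman's rank correlation over cells of at least 1000 UMIs for the 3 pairs of genes (1 panel a pair) in the 6 populations, spheroids left and attached cells right. Filled circles use each cell's share of UMIs, open squares UMIs thinned to 1000 per cell, and open triangles a total without the 5 most abundant genes. THBS1 and CAV1 are above 0 in all populations, highest in treatment-naive spheroids, while pairs with ACTA2 stay near 0.

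MMP2 and CD44 recurred among the genes that went most closely with THBS1 over cells. MMP2, a collagenase of basement membranes, was the first or second gene in 4 of the 6 populations, with a correlation of 0.506 in paclitaxel-resistant spheroids and of 0.329, 0.329 and 0.193 in attached doxorubicin-resistant, paclitaxel-resistant and treatment-naive cells. CD44, the receptor for hyaluronan, led in doxorubicin-resistant spheroids (0.451) and attached doxorubicin-resistant cells (0.341) and came second in paclitaxel-resistant spheroids (0.452). The correlation with MMP2 was above 0 in all 6 populations, as it was with CD44. Other genes among the highest 3 were CTNNB1 in doxorubicin-resistant spheroids, IFNGR1 in paclitaxel-resistant spheroids, CSF1 in attached doxorubicin-resistant cells, PDGFB in attached paclitaxel-resistant cells and PVR and CAV1 in treatment-naive attached cells. In treatment-naive spheroids the highest 3 were CAV1, COL1A1 and PDGFRB. GAPDH, a glycolytic enzyme and the most abundant gene of the panel, was among the lowest 2 in every population, with a correlation of -0.401 to -0.135, and of -0.301 to -0.139 once the 5 most abundant genes were left out of the total. The other low genes were GSTP1, NME1, S100A9, BIRC5, NUF2 and PTGS2, 1 in each population.

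The companions of CAV1 differed between populations. In treatment-naive spheroids they were PDGFRB, a growth factor receptor of mesenchymal cells, with a correlation of 0.583, COL1A1, the main chain of collagen I, with 0.521, and S100A4 with 0.480. The lowest there were S100A9, an inflammatory calcium-binding protein (-0.549), and ITGA6, an integrin of basal epithelium (-0.371). In attached treatment-naive cells VIM (0.415), NME1 and LGALS1 were highest and CA12 (-0.360) and S100A9 lowest. ITGB1, the shared beta chain of many integrins, led in doxorubicin-resistant spheroids (0.471, followed by SPHK1 and PLAU) and attached doxorubicin-resistant cells (0.362, followed by KRT8 and CD24). KRT8, a keratin of simple epithelia, led in paclitaxel-resistant spheroids (0.440, followed by ARG2 and MTDH) and attached paclitaxel-resistant cells (0.262, followed by ITGB1 and KRT17). The correlation of CAV1 with PDGFRB was above 0 in all 6 populations but as low as 0.0432, and with ITGB1 it ran from 0.238 to 0.471, with 0.340 in treatment-naive spheroids and 0.260 in attached treatment-naive cells.

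ACTA2 had no close companion. Its highest correlation in any population was 0.281, with CD44 in treatment-naive spheroids, where CDH13 was also among the highest 3. FBLN1, a matrix glycoprotein of elastic fibres, led in attached paclitaxel-resistant (0.166) and treatment-naive cells (0.199), and was above 0 in all 6 populations. AKR1C1 (0.230), IL18 and IGFBP7 were highest in attached doxorubicin-resistant cells, RNASE4 (0.178), CD44 and CDKN1A in doxorubicin-resistant spheroids, and COL1A1 (0.209), CDH13 and RNASE4 in paclitaxel-resistant spheroids. NME1, a nucleoside diphosphate kinase, was among the lowest 2 in 3 populations, down to -0.210 in paclitaxel-resistant spheroids.

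Sorting the cells of each population by their share of 26 other mesenchymal and matrix genes, of which VIM, LGALS1 and FN1 are the most abundant, showed where the members belonged to such a programme. The 25% of treatment-naive spheroid cells with the highest share had 1927 CPM of THBS1, against 187.5 CPM in the 25% with the lowest, a 10.3-fold difference. For CAV1 these values were 18752 CPM and 4683 CPM, a 4.00-fold difference, and for ACTA2 446.3 CPM and 414.7 CPM, a 1.08-fold difference. In attached treatment-naive cells the top 25% exceeded the bottom 25% 1.30-fold in THBS1, 2.07-fold in CAV1 and 1.26-fold in ACTA2. The wide THBS1 and CAV1 distributions of treatment-naive spheroids thus ran in part along the mesenchymal and matrix genes, and ACTA2 did not. The rank correlation with the mesenchymal share there was 0.270 for THBS1, 0.486 for CAV1 and 0.00641 for ACTA2. The sorted cells included the 23.0% that resembled another population, and the part of those cells in these differences was not tested. The median depth of the top and bottom 25% in treatment-naive spheroids was 2734 and 5151 UMIs, and its part in these differences was not tested.

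The link of CAV1 to the mesenchymal share was looser in the 4 resistant populations than in treatment-naive cells of the same culture. That of THBS1 was looser in resistant than in treatment-naive spheroids. In attached cells its ratio was above the 1.30 of treatment-naive cells with doxorubicin resistance and below it with paclitaxel resistance. The top 25% exceeded the bottom 25% in THBS1 2.89-fold in doxorubicin-resistant and 2.53-fold in paclitaxel-resistant spheroids, and 1.74-fold and 1.15-fold in attached doxorubicin-resistant and paclitaxel-resistant cells. For CAV1 the ratios were 1.24 and 0.870 in doxorubicin-resistant and paclitaxel-resistant spheroids and 1.15 and 1.24 in the attached doxorubicin-resistant and paclitaxel-resistant cells. In paclitaxel-resistant spheroids CAV1 was thus lower where the mesenchymal share was high. ACTA2 ratios in these 4 populations lay between 0.885 and 1.68. The basal epithelial genes gave the opposite picture for THBS1 in treatment-naive spheroids. There the 25% of cells with the highest basal share had 412.4 CPM of THBS1 against 959.9 CPM in the 25% with the lowest. ACTA2 had 579.1 CPM against 337.6 CPM. Other populations differed. In attached treatment-naive cells the THBS1 ratio was 1.69 by basal share, above the 1.30 by mesenchymal share. By basal share it was 1.315 and 1.20 in doxorubicin-resistant and paclitaxel-resistant spheroids and 0.887 and 1.10 in attached doxorubicin-resistant and paclitaxel-resistant cells.

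**Figure D5:**
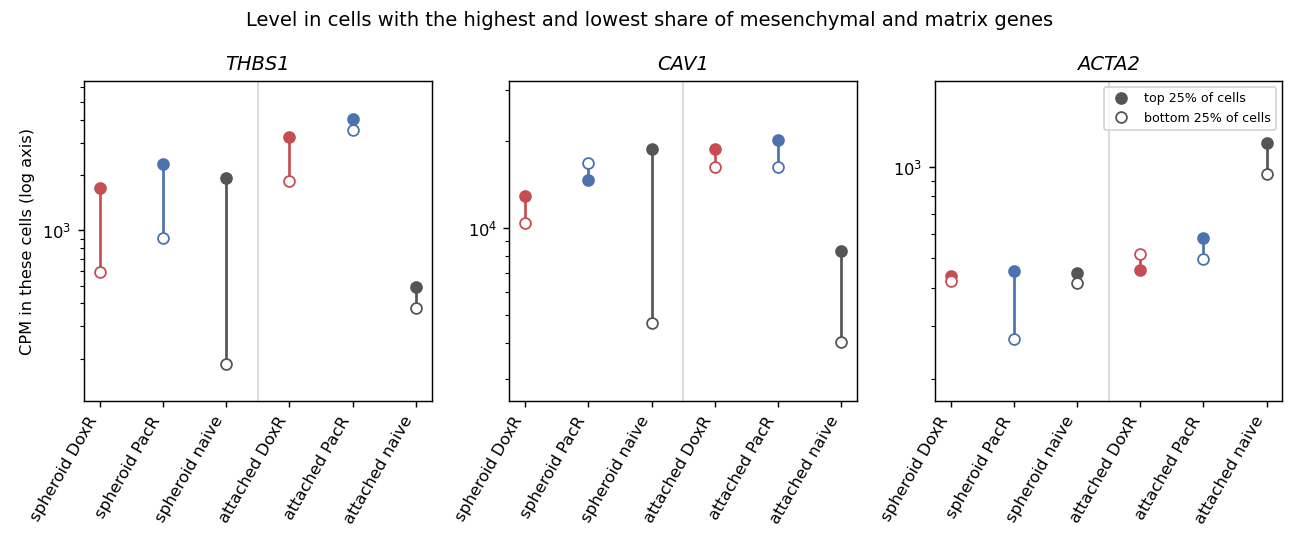
CPM of each gene (log axis, 1 panel a gene) in the 25% of cells with the highest (filled) and the lowest (open) share of 26 other mesenchymal and matrix genes, in the 6 populations. Lines join the 2 values of a population. Treatment-naive spheroids have the longest lines for THBS1 and CAV1 and almost none for ACTA2.

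THBS1 also varied with the share of 16 mitotic (G2/M) genes. The 25% of cells with the highest G2/M share had less THBS1 than the 25% with the lowest in all 3 attached populations, at 1810.5 against 3304 CPM in doxorubicin-resistant, 2346 against 4584.5 CPM in paclitaxel-resistant and 252.3 against 412.5 CPM in treatment-naive cells. In spheroids the ratio of top to bottom was 0.980 with doxorubicin resistance, 0.443 with paclitaxel resistance and 1.39 in treatment-naive cells. CAV1 was 1.92-fold higher in the top than in the bottom 25% of treatment-naive spheroids, and 0.910 to 1.25 times the bottom elsewhere. ACTA2 differed by little, with ratios of 0.896 to 1.10. The rank correlation of THBS1 with the G2/M share was -0.164 in attached doxorubicin-resistant and -0.169 in attached paclitaxel-resistant cells, but only -0.0176 in attached treatment-naive cells. The top 25% were deeper in every population, at a median of 4483 against 3138 UMIs in attached doxorubicin-resistant cells and 4336 against 2388 UMIs in paclitaxel-resistant spheroids. The part of depth in these differences was not tested.

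The wider mesenchymal and matrix list did not move as 1 block with resistance. Of its 26 measured genes, 2 were higher and 4 lower in attached doxorubicin-resistant against treatment-naive cells, where 24.3% of all genes measured were higher and 22.8% lower, with a median log2 fold of -0.04 beside 0.13 over all genes. In attached paclitaxel-resistant cells 8 were higher and 2 lower, against 20.2% higher and 25.2% lower of all genes, with a median of 0.36 beside -0.02. In spheroids 1 was higher and 6 lower with doxorubicin resistance (median -0.28 beside 0.20), against 16.5% and 17.3% of all genes. With paclitaxel resistance 3 were higher and 4 lower (median -0.03 beside 0.00), against 9.92% and 20.2% of all genes.

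CDH6, a cadherin of mesenchymal and kidney tissue, was among the highest 2 list genes in all 4 comparisons, at 2.68-fold and 6.29-fold in doxorubicin-resistant and paclitaxel-resistant spheroids and 3.70-fold and 6.11-fold in attached doxorubicin-resistant and paclitaxel-resistant cells. The other highest genes were VIM, the intermediate filament of mesenchymal cells, at 1.83-fold in doxorubicin-resistant spheroids and 2.10-fold in attached doxorubicin-resistant cells, the transcription factor TCF4 at 2.49-fold in paclitaxel-resistant spheroids (123 against 66 UMIs) and S100A4 at 6.72-fold in attached paclitaxel-resistant cells. COL3A1, the chain of collagen III, was among the lowest 2 throughout, 16.0-fold and 3.85-fold lower in doxorubicin-resistant and paclitaxel-resistant spheroids and 13.5-fold and 3.48-fold lower in attached doxorubicin-resistant and paclitaxel-resistant cells. The small proteoglycan DCN was 8.85-fold and 9.32-fold lower in doxorubicin-resistant and paclitaxel-resistant spheroids and 3.56-fold lower in attached doxorubicin-resistant cells, and the protease PLAU was 3.97-fold lower in attached paclitaxel-resistant cells. Resistant populations thus had less COL3A1 in both cultures.

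Apart from VEGFA, the measured partners of thrombospondin-1 and caveolin-1 stayed within 2-fold with resistance. Of the thrombospondin partners, 3 were measured. VEGFA, the angiogenic growth factor that thrombospondin-1 binds, was 2.63-fold and 2.65-fold lower in attached doxorubicin-resistant and paclitaxel-resistant than in treatment-naive cells, at 4889 and 4854 CPM against 12840 CPM. In spheroids its ratio was 0.982 with doxorubicin and 0.958 with paclitaxel resistance. ITGB1 and TGFB1 did not reach 2-fold in any of the 4 comparisons. The same held for all 6 measured caveolin partners, namely SRC, EGFR, ITGB1, IGF1R, AKT1 and CTNNB1, and for RHOB, the 1 measured contractile gene of 7. In these 4 comparisons 9.92% to 24.3% of all genes measured were higher and 17.3% to 25.2% lower. Among the TGF-beta axis genes, BMP1 was lower in attached doxorubicin-resistant cells (2.21-fold) and TGFB3 was lower in doxorubicin-resistant and paclitaxel-resistant spheroids (3.05-fold and 3.28-fold), while ENG, ID1 and TGFB1 stayed within 2-fold.

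Over the 6 populations, the genes whose level ran most like each member were named by Pearson's r of log2(CPM + 1) among 212 genes. For THBS1 the highest 3 included KRT8 (0.953) and the drug efflux transporter gene ABCG2 (0.942), and the lowest was PTGS2, which encodes cyclooxygenase-2 (-0.941). For CAV1 they were the cyclin gene CCNE2 (0.910), THBS1 (0.908) and RNASE4 (0.907), and the lowest was the integrin gene ITGAE (-0.966). For ACTA2 they were IGFBP5 (0.948), the DNA damage kinase gene ATM (0.934) and XBP1 (0.933), and the lowest was the fibronectin gene FN1 (-0.945). Between members, r was 0.908 for THBS1 and CAV1, -0.461 for THBS1 and ACTA2 and -0.782 for CAV1 and ACTA2. These values describe 6 points that share 2 cartridges and carry no test.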

How the data were processed

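Cells of 6 tagged populations were measured with a targeted panel on 2 cartridges. The deposited matrices hold counts, whole numbers of UMIs per gene and cell that the authors made on a cloud platform with error correction of UMIs (RSEC). The deposited barcode and feature lists name cells and genes. The submitters' processing notes name hg38, and the sources used here do not say whether strand was used. From these counts, CPM of a population is its summed UMIs of a gene per 1000000 UMIs. Folds have exact conditional binomial, shares exact binomial and levels exact Poisson intervals. A gene was measured where either population had at least 50 UMIs and was called at 2-fold. Shares were thinned to 1000 UMIs per cell by hypergeometric expectation. Doublets were not called beyond the sample tags. Barcodes under 1000 UMIs entered CPM only.

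The 3 members were named, with the 3 genes of highest and the 1 of lowest r over populations, the 3 of highest and the 2 of lowest Spearman correlation in each population among genes detected in at least 20% of cells, the 2 highest and 2 lowest mesenchymal list genes in each resistant against treatment-naive comparison and the measured partner genes. Some genes that this rule takes are not reported here. Members and lists were chosen with earlier results of these data known. Of 373 symbols, 363 were current RefSeq symbols. Other scalings, cell sets, a fold of 1.5 and other measures of detection and co-expression were tried. Fold intervals were tested on simulated data. Python 3.11.15, NumPy 2.4.6, SciPy 1.17.1, pandas 2.3.3 and matplotlib 3.10.9 were used.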

Additional observations from a re-analysis of the deposited data

How the results depend on the processing

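Each of the 27 folds of a member was recomputed in 7 other ways. Calls at 2-fold changed in 6 folds with summed UMIs left unscaled, in 4 with median-of-ratios scaling and in 2 with the 5 most abundant genes left out of the totals. They changed in 0 folds with cells of at least 1000 UMIs, with the mean of CPM per cell, without the 1% of cells with most UMIs and without cells that resembled another population. Unscaled, the number of members lower was 0 in both attached resistant populations against treatment-naive cells and 3 in both resistant spheroids against attached cells, where CAV1 stood at 0.245 and ACTA2 at 0.335 with doxorubicin resistance and at 0.320 and 0.227 with paclitaxel resistance. Median-of-ratios scaling gave 2 members higher (THBS1 at 2.18 and CAV1 at 2.41) and 0 lower (ACTA2 at 0.502) in treatment-naive spheroids against attached cells, and 0 lower in doxorubicin-resistant spheroids against attached cells (THBS1 at 0.509). Leaving out the 5 genes gave 0 lower in attached paclitaxel-resistant cells and 1 higher in paclitaxel-resistant spheroids. At a fold of 1.5, 1 member was higher in paclitaxel-resistant against treatment-naive spheroids, 2 were higher in treatment-naive and 2 lower in paclitaxel-resistant spheroids against attached cells. For the mesenchymal and matrix list in attached doxorubicin-resistant cells, 7 genes were higher and 2 lower unscaled, and 1 was higher with median-of-ratios scaling. In paclitaxel-resistant spheroids 1 was higher and 8 lower unscaled, 5 were higher without the 5 genes and 5 without cells resembling another population, and 1 was higher by the mean of CPM per cell. In doxorubicin-resistant spheroids 2 were higher without the 5 genes, and 2 without such cells. Where values moved with scaling, the cause was not tested. The median log2 fold of all genes measured between cultures was -0.41 to -0.33 as CPM and -0.06 to 0.04 with median-of-ratios scaling, so a member's level in spheroids against attached cells is best read beside that shift. The correlations without cells that resembled another population and with totals that leave out the 5 most abundant genes were added after seeing the data. No paired analysis was possible because each population was measured once. Depth limits the spheroid cells most, where a level of 1000 CPM is 1 UMI in a cell thinned to 1000.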

Other observations

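Barcodes under 1000 UMIs, which only the spheroid cartridge held in number, contained the members at lower detection. THBS1 was found in 14.8% of such doxorubicin-resistant, 17.0% of paclitaxel-resistant and 11.2% of treatment-naive barcodes, and ACTA2 in 8.29%, 6.36% and 7.45%. CAV1 was found in 65.4%, 72.8% and 65.7% of them. These barcodes held 3.57%, 5.07% and 4.53% of the UMIs of the doxorubicin-resistant, paclitaxel-resistant and treatment-naive spheroids.

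Among attached doxorubicin-resistant cells, ACTA2 went with the basal epithelial genes. The 25% of cells with the highest basal share had 671.4 CPM, against 364.7 CPM in the 25% with the lowest, a ratio of 1.84, and the correlation of ACTA2 with that share was 0.201. In attached paclitaxel-resistant cells the ratio was 1.22 and in attached treatment-naive cells 0.998. Treatment-naive spheroids were similar, with a ratio of 1.715 and a correlation of 0.183. The ratio was 1.11 and 1.01 in doxorubicin-resistant and paclitaxel-resistant spheroids.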
